A study of Mus musculus with 7 samples.

Results

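The promoters of 9 mouse genes that set the shape and number of mitochondria were examined for DNase I hypersensitivity in cultured podocytes, the epithelial cells that wrap the capillaries of the kidney's filter. The genes were Dnm1l, Mff, Fis1, Mief1, Mief2, Mfn1, Mfn2, Opa1 and Ppargc1a, out of 21853 protein-coding genes in the annotation (GENCODE vM21). Chosen for them were all listed DNase peaks that overlapped 500 nt either side of any protein-coding transcription start site (TSS) of these genes, and all 9 genes had such a peak in every list, as did 21835 genes in all. DNase-Seq cuts open chromatin with DNase I and sequences the released fragments, so that a pile of fragments marks an accessible site. The cells were an immortalized mouse podocyte culture, growth arrested in medium with reduced serum and then kept for 36 h at a glucose concentration of 5 mM (NG, 2 replicates) or of 25 mM, the latter after transfection of either a non-targeting mimic (HG+NT, 2 replicates) or a miR-93 mimic (HG+miR-93, 2 replicates), both at 50 nM, beside 1 library of genomic DNA used as input. The labels give no mimic for the NG cells, so the effect of high glucose and that of transfection cannot be told apart between NG and HG+NT. The questions of the design were whether high glucose alters hypersensitivity and whether miR-93 turns such changes back.

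Mitochondria divide and fuse continually. In fission, the dynamin-like GTPase Dnm1l (also called Drp1) is drawn from the cytosol to the outer mitochondrial membrane, where it assembles into rings that constrict the organelle, and Mff, Fis1, Mief1 (MiD51) and Mief2 (MiD49) are the outer-membrane proteins that recruit it. In fusion, the GTPases Mfn1 and Mfn2 join outer membranes and Opa1 joins inner membranes and keeps the cristae in shape, while Ppargc1a (PGC-1alpha) is a transcriptional coactivator that drives the making of new mitochondria. In podocytes, whose foot processes need a steady supply of ATP, fragmented mitochondria are a known feature of injury in high glucose.

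For each condition 1 joint peak list was analysed, so no value below has a replicate error and no test between conditions was possible. The lists held 1036304 (NG), 846027 (HG+NT) and 900109 (HG+miR-93) peaks, and their sequencing depth relative to the input, recovered from the listed values, was 2.24, 3.85 and 5.15. NG was therefore the shallowest list and its values the least precise. None of the 26 (NG), 23 (HG+NT) and 23 (HG+miR-93) promoter peaks of the 9 genes passed correction for multiple testing in its list: the −log10 q was 0 for every one of them. The highest −log10 p among them was 4.15 under NG, 2.69 under HG+NT and 2.26 under HG+miR-93. A podocyte marker set of 8 genes had a median promoter percentile of 45.6, 69.1 and 46.6 in the NG, the HG+NT and the HG+miR-93 list. Of the 8, 3, 6 and 4 lay above the middle of the list. In the same order, 4 endothelial markers had medians of 48.8, 45.9 and 62.9 and 2 mesangial markers 36.7, 82.6 and 82.0. Medians were 74.1, 48.4 and 52.0 for 3 proximal tubule markers and 27.1, 36.3 and 38.4 for 2 leukocyte markers. The podocyte set stood above the leukocyte set in every list and below each other set in at least 1 list. Promoter rank alone thus did not single out podocytes in these small sets.

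The promoters that the results turn on are shown first, because the height of a peak and the letters under it can then be read together. Each runs from 250 bases before to 50 bases after the main TSS (the TSS with the most protein-coding transcripts), 5′ to 3′ along the gene's own strand, in GRCm38. Capitals mark matches, on either strand, to the motif letters searched and listed further on. Opa1 (chr16:29579130-29579429, plus strand), Fis1 (chr5:136953025-136953324, plus strand) and Mief1 (chr15:80233768-80234067, plus strand) are shown as promoters with high peaks, Mfn1 (chr3:32529215-32529514, plus strand) as the promoter that differed most between lists at the same start sites, and Ppargc1a (chr5:51567677-51567976, minus strand) as the promoter with a summit under HG+NT only.
Opa1: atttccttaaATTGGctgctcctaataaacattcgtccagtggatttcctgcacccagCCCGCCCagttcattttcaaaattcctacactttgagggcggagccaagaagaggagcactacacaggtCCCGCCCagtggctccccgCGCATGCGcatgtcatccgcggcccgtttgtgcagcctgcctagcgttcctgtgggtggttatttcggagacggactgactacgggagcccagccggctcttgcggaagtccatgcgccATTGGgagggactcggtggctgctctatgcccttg
Fis1: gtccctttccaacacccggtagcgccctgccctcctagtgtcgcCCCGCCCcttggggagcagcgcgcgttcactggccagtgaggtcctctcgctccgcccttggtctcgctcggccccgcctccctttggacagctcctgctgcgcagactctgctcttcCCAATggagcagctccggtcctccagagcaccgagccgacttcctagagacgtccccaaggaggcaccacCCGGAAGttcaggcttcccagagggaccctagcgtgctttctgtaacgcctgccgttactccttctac
Mief1: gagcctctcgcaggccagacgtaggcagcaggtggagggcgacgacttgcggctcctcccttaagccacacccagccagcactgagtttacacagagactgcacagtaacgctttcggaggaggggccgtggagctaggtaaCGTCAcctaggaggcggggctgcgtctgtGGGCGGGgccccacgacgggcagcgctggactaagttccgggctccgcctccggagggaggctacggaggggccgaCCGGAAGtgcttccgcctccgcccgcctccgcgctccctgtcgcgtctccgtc
Mfn1: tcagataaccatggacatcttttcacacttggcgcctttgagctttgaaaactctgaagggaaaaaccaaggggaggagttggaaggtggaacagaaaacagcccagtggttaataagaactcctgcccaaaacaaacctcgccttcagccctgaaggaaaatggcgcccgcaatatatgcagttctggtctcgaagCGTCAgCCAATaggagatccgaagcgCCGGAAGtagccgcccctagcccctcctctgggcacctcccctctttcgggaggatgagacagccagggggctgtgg
Ppargc1a: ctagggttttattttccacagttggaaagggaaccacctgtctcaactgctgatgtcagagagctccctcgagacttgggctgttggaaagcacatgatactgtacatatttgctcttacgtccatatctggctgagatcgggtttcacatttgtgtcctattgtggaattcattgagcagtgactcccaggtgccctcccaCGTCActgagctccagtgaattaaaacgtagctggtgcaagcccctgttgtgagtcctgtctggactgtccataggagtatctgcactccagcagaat

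The transfected mimic is named miR-93 with no arm given. The mature miR-93-5p of RefSeq (GRCm38.p6, chr5:138165574-138165596, minus strand), the arm whose seed is searched further on, is printed with its seed, bases 2 to 8, in capitals.
mmu-miR-93-5p: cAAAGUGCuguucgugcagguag

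Across the 9 genes, the strongest promoter peak by fold over input lay at a median percentile of 74.3 under NG, 33.6 under HG+NT and 37.5 under HG+miR-93 among the 21835 genes, where the median of all genes was 50.9, 49.9 and 49.8. Fold here is the fragment pileup at the summit over the local input mean, each increased by 1, and a percentile is the rank of a gene's fold within its own list. This gap was not kept in every setting. With summits within 500 nt of a TSS, which leaves out Mief2, the medians were 43.8, 44.0 and 35.5. These are ranks among the 12274 genes with such a summit in every list, so both the peaks chosen and the genes ranked differ. With the folds of all promoter peaks summed, among all 21835 genes, the medians were 72.9, 74.2 and 61.6. Under NG, 6 of the 9 genes lay above the middle of the list, against 4 under HG+NT and 2 under HG+miR-93. Ranked by the pileup itself, that is by the fragments at the summit scaled to the input's depth, the genes stood higher and differed less between lists, with median percentiles of 81.1, 68.7 and 61.9 and with 9, 8 and 7 genes above the middle. The median local input mean at their peaks of highest fold was 3.2, 4.0 and 2.18 fragments in the NG, the HG+NT and the HG+miR-93 list, against 2.0 in each list for all genes. Across all genes, ranks by pileup were also closer between lists than ranks by fold, with Spearman's rho of 0.827 against 0.413 for NG and HG+NT, given as a description over genes that share libraries and input.

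**Figure D1:**
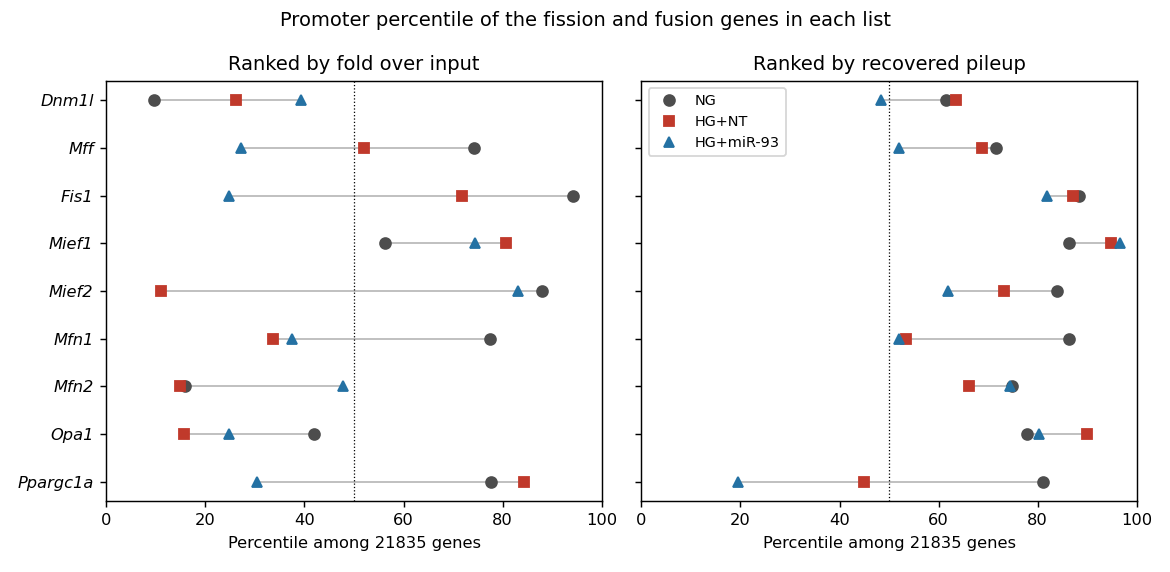
Percentile of the strongest promoter peak (horizontal axis, 0 to 100, among all measured genes) of each gene in the 3 lists, ranked by fold over input (left) and by recovered pileup (right); the dotted line is the middle of a list. By fold, Fis1 runs from 94.3 under NG to 24.9 under HG+miR-93, while by pileup it stays between 81.9 and 88.3.

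Dnm1l, the fission GTPase itself (chr16:16312230-16358959, minus strand), had its 6 TSSs within 426 nt of each other. Its highest promoter pileup was 7.15 under NG, 5.97 under HG+NT and 4.86 under HG+miR-93, from 16, 23 and 25 fragments, with 95% exact Poisson intervals of 4.08 to 11.6, 3.79 to 8.96 and 3.14 to 7.17. The intervals overlapped in every pair, and the order was downward through the lists. By fold the order was the other way, with 1.24, 1.39 and 1.54 and percentiles of 9.57, 26.1 and 39.4. Under NG the summit with the highest pileup lay on an input mean of 6.0 fragments. The peak of highest fold there was a different one, 610 nt upstream of the nearest TSS with 5 fragments. Under HG+NT and HG+miR-93 the same summit was highest by both measures, on input means of 4.0 and 2.8. All intervals here cover counting error only and take the listed fold and p as those of 1 pileup of both replicates' fragments, and a lower pileup from fewer cells with an open site or from less cutting in each cell cannot be told apart in such bulk lists.

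Among the receptors of Dnm1l, Mff (chr1:82724890-82752394, plus strand) had 9 TSSs in 3 clusters. At the most upstream cluster its pileup was 8.49 under NG, 6.49 under HG+NT and 5.05 under HG+miR-93, from 19, 25 and 26 fragments, and the ratio of HG+miR-93 to NG was 0.595 with an exact interval of 0.317 to 1.14. By fold, Mff went through percentiles of 74.3, 51.9 and 27.2. The HG+miR-93 value came from another place, a peak 544 nt downstream of an internal TSS with 12 fragments, because the upstream summit there lay on an input mean of 5.0 fragments and had a fold of 1.01.

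Fis1, the small tail-anchored receptor (chr5:136953275-136966234, plus strand), had the highest promoter pileup of the 9 genes under NG. At its upstream TSSs the pileup was 11.2 under NG, 9.35 under HG+NT and 7.19 under HG+miR-93, with intervals of 7.23 to 16.5, 6.55 to 12.9 and 5.06 to 9.91 that all overlapped. A downstream TSS, 8802 nt from the first, held peaks of like height, 9.83, 7.27 and 7.38. By fold Fis1 was at percentiles of 94.3, 71.8 and 24.9, with folds of 3.04, 2.07 and 1.37. The local input mean under the summit was 3.0, 4.0 and 5.0 fragments in the same order. The summit stood 133 nt after the nearest TSS under NG and 115 and 88 nt before it under HG+NT and HG+miR-93.

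Mief1 and Mief2 encode the paired adaptors MiD51 and MiD49. Mief1 (chr15:80234018-80253371, plus strand) had 1 promoter peak in each list, with its summit 84, 24 and 22 nt before the nearest TSS and with pileups of 10.7, 12.5 and 11.3 from 24, 48 and 58 fragments. It was the highest of the 9 genes under HG+NT and under HG+miR-93, and its input mean was 5.0 in every list, so fold followed pileup (1.95, 2.24 and 2.05) and the percentile was 56.3, 80.7 and 74.5. Mief1 lies on chromosome 15, whose 781 measured genes had a median fold percentile of 55.3 under NG, 76.0 under HG+NT and 78.8 under HG+miR-93. After fold was divided by the median of its chromosome, no gene of the 9 was higher by 20 points or more under HG+NT than under NG. Mief2 (chr11:60728398-60732951, plus strand) had a pileup of 10.3 under NG and 7.01 under HG+NT, 171 and 239 nt after its single TSS, a ratio of 0.682 (0.377 to 1.25). Under HG+miR-93 the broad peak over Mief2 had its summit 1130 nt before the TSS, at 5 nt from the TSS of Flii, a gene on the opposite strand that was looked up after this summit was seen, and with a pileup of 5.64. The fold percentiles of Mief2, 87.8, 11.0 and 83.2, were those of 3 summits with input means of 3.2, 6.0 and 2.0 fragments.

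For outer-membrane fusion, Mfn1 (chr3:32529465-32579239, plus strand) had a summit within 33 nt of an upstream TSS in every list. The pileup there was 10.7 under NG, 5.19 under HG+NT and 5.05 under HG+miR-93, from 24, 20 and 26 fragments, with intervals of 6.87 to 15.9, 3.17 to 8.02 and 3.30 to 7.40. NG stood above both high glucose lists, and the ratio to NG was 0.485 (0.254 to 0.915) under HG+NT and 0.471 (0.260 to 0.858) under HG+miR-93. Of the upstream promoters that could be compared, 8 between NG and HG+NT and 7 between NG and HG+miR-93, Mfn1 was the 1 whose ratio had an interval excluding 1. Over all genes with a summit at their most upstream TSSs in both lists, the interval lay below 1 for 3.93% and above 1 for 0.92% from NG to HG+NT, and for 9.23% and 0.216% from NG to HG+miR-93. The median ratios of those genes, 0.872 and 0.793, lie inside the Mfn1 intervals, so the ratio of Mfn1 is not told apart from the shift of all genes at this depth. Input means under these summits were 4.0, 3.2 and 3.2. By fold the percentile was 77.4, 33.6 and 37.5, with the 2 high glucose values taken at an internal TSS 32081 nt downstream, where folds of 1.52 and 1.53 were slightly above the 1.47 and 1.44 at the upstream one. The upstream and internal pileups were both highest under NG, where the internal summit reached 4.47, against 2.86 and 2.92.

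Mfn2, the other mitofusin, which also tethers mitochondria to the endoplasmic reticulum (chr4:147873599-147904704, minus strand), had 2 start-site clusters. At the upstream cluster the pileup was 8.93, 6.23 and 6.61 in the NG, the HG+NT and the HG+miR-93 list, from 20, 24 and 34 fragments, with overlapping intervals. These summits lay on input means of 7.0, 7.0 and 6.0, the highest input of the 9 genes under NG, and their folds were 1.24, 0.904 and 1.09, so the HG+NT summit was below its local input. The fold percentiles of 15.9, 15.0 and 47.7 came from the downstream cluster, where the fold under HG+miR-93 was 1.66 with a summit 51 nt after the TSS.

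Opa1, the inner-membrane GTPase (chr16:29579334-29654884, plus strand), carried very wide peaks, of 11736, 8944 and 8771 bp in the NG, the HG+NT and the HG+miR-93 list, each with its summit at the upstream TSSs (168, 2 and 11 nt before the nearest). The pileup was 9.38, 10.1 and 7.19 from 21, 39 and 37 fragments, and the intervals overlapped in all pairs. The input mean was 5.0, 8.0 and 5.0. By fold the HG+NT value was therefore the lowest (1.73, 1.24 and 1.37, percentiles 41.8, 15.6 and 24.9), whereas by pileup HG+NT was the highest (percentiles 77.9, 89.9 and 80.3).

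Ppargc1a, the biogenesis coactivator (chr5:51454250-51567726, minus strand), had an upstream TSS and a pair of internal TSSs, the farther of which lies 13835 nt downstream. At the upstream TSS a summit within 500 nt was listed under HG+NT only, 11 nt before the TSS, with a pileup of 4.67 (2.77 to 7.39) from 18 fragments over the genome-wide input mean of 1.43. Under NG and HG+miR-93 the peaks over that TSS had their summits 1042 and 544 nt before it, with pileups of 4.47 (2.14 to 8.21) and 3.30 (1.92 to 5.29), so a peak covered the promoter in every list and the heights were not distinguishable at this depth. At the internal TSSs the pileup was 5.81 under NG, 3.12 under HG+NT and 2.92 under HG+miR-93, and the ratio of HG+NT to NG was 0.537 (0.224 to 1.28). The highest peak, a pileup of 9.83 under NG, had its summit 1093 nt downstream of the internal TSSs. That summit lay outside the promoter window, which only the edge of the peak reached. Neither list from high glucose had a peak there that reached the window. A peak at that place that stopped short of the window would not have been counted, so its presence in high glucose was not tested. The fold percentile was 77.7 under NG, 84.3 under HG+NT and 30.5 under HG+miR-93.

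**Figure D2:**
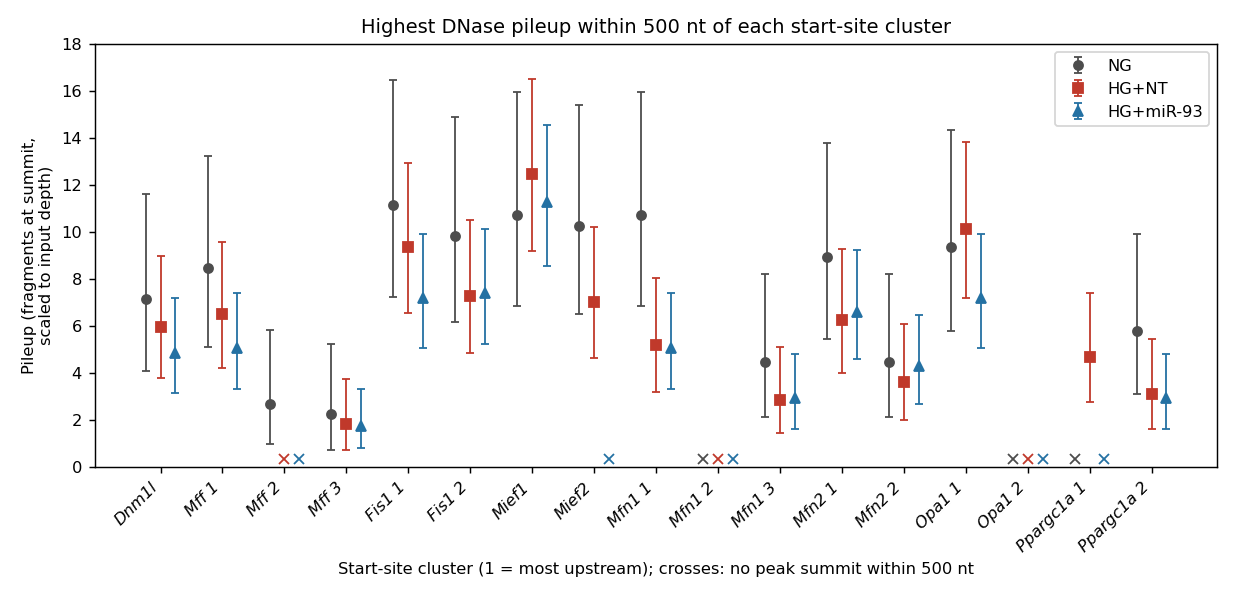
Highest DNase pileup (vertical axis, fragments at the summit scaled to input depth) with its summit within 500 nt of each start-site cluster of the 9 genes, cluster 1 being the most upstream; bars are 95% exact Poisson intervals of the fragments, and crosses stand for lists with no such summit. Intervals of the 3 lists overlap at every cluster that has them, and Mfn1 cluster 1 shows the widest gap, 10.7 under NG against 5.19 and 5.05.

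Read at the same start-site clusters, the NG pileups of these genes were mostly the higher ones. The summit of each list could lie anywhere within 500 nt of the cluster, and some genes gave more than 1 cluster. Over all start-site clusters with a summit in both lists, 11 of 13 ratios of HG+NT to NG were below 1, with a median of 0.765, and 11 of 12 ratios of HG+miR-93 to NG, with a median of 0.710. Between HG+NT and HG+miR-93, 8 of 12 ratios were below 1, with a median of 0.949. By another measure, the highest promoter pileup of a gene, the median ratios of all 21835 genes were also below 1, at 0.894, 0.846 and 0.952. At the most upstream cluster alone, the median ratio to NG was 0.800 under HG+NT (8 of the genes) and 0.680 under HG+miR-93 (7 of them). The like medians over all genes were 0.872 and 0.793. The share of all genes' clusters with a ratio below 1 was not counted, so the counts below 1 are not results about these genes. The depth of the lists rises in the order NG, HG+NT, HG+miR-93. What part depth has in these ratios was not tested.

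From NG to HG+NT, 5 of the 9 genes were lower by 20 percentile points or more by fold (Mff, Fis1, Mief2, Mfn1 and Opa1), where 24.6% of all genes were, and 1 was higher (Mief1), where likewise 24.6% of all genes were. The median change of the 9 genes was −22.3 points, against 0.0916 over all genes. That median was −6.78 points with summits within 500 nt (ranked among 12274 genes only), −7.14 with folds summed, −8.00 at the main TSS alone, −13.4 ranked by −log10 p and −2.90 ranked by pileup. When the 95% intervals of the pileups at the peaks of highest fold were compared, 1 gene was lower without overlap (Mfn1, between different TSSs), against 2.19% of all genes, and 0 were higher, against 0.719%. With the highest promoter pileup of each list in place of the peak of highest fold, the interval of the ratio lay below 1 for 2 genes, Mfn1 at the same TSS and Ppargc1a between different places (0.476, 0.241 to 0.929), against 3.13% of all genes, and above 1 for 0, against 0.82%. The NG value in the Ppargc1a ratio was that of the summit outside the promoter window.

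From HG+NT to HG+miR-93, 2 genes were higher by 20 points or more (Mief2, 72.2 points, and Mfn2, 32.7 points), where 20% of all genes were, and 3 were lower (Mff, Fis1 and Ppargc1a, with changes of −24.7, −46.9 and −53.8 points), where 20.1% were. The HG+miR-93 value of Mief2 was that of the summit 5 nt from the TSS of Flii, and by pileup the change of Mief2 was −11.4 points. These shares of 2 and 3 of 9 genes lay close to the background, and the median change of the 9 was 3.85 points. Without overlap of the intervals at the peaks of highest fold, 1 gene was lower (Mff, between different TSSs), against 1.91% of all genes, and 0 were higher, against 0.426%. With the highest promoter pileups, the ratio's interval excluded 1 for 0 of the 9 genes in either direction, against 2.01% of all genes below 1 and 0.243% above 1. The HG+NT list is shared by this comparison and the one with NG, so the values of Mief2, lowest under HG+NT, enter both.

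From NG to HG+miR-93, 4 genes were lower by 20 points or more (Mff, Fis1, Mfn1 and Ppargc1a), against 25.4% of all genes, and 2 were higher (Dnm1l and Mfn2), against 25.2%. The intervals at the peaks of highest fold did not overlap for 3 genes, all lower (Mff, Mfn1 and Ppargc1a), against 3.49% of all genes, and for 0 higher, against 0.33%. By the highest promoter pileups, the ratio's interval lay below 1 for 3 genes (Mief2, 0.549 with 0.307 to 0.993, Mfn1, and Ppargc1a, 0.336 with 0.168 to 0.663), against 6.11% of all genes, and above 1 for 0, against 0.325%. Of these, only Mfn1 was read at the same TSS in both lists. The NG value of Ppargc1a in both counts was again that of the summit outside the promoter window. By the percentile of fold, HG+NT was the highest of the lists for 2 genes (Mief1 and Ppargc1a) and the lowest for 4 (Mief2, Mfn1, Mfn2 and Opa1), where 31% of all genes had HG+NT highest and 31% had it lowest. The fold of Ppargc1a itself was 2.35 under NG and 2.34 under HG+NT.

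**Figure D3:**
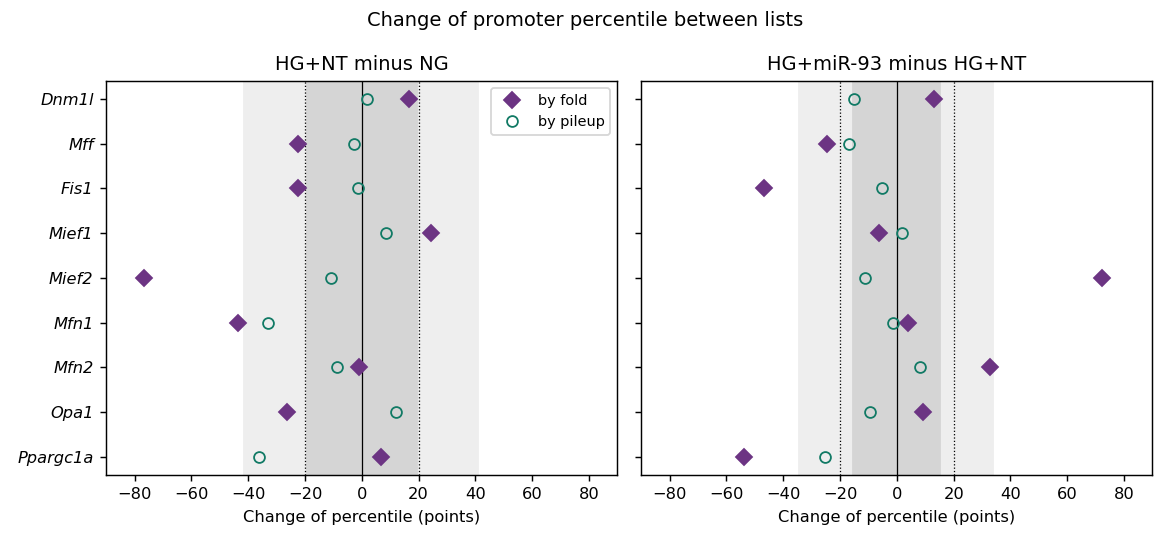
Change of promoter percentile in points (horizontal axis) for each gene from NG to HG+NT (left) and next to HG+miR-93 (right), by fold (filled diamonds) and by recovered pileup (open circles). Dark and light bands hold the middle 50% and 80% of all genes by fold and dotted lines mark 20 points. Mief2 lies outside both bands by fold, at −76.9 and 72.2, and at −10.7 and −11.4 by pileup. Its HG+miR-93 value is that of the summit near the TSS of Flii.

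In each list the single tallest promoter peak of these genes was centred within 500 nt of a TSS. This did not hold gene by gene. The tallest peak of Ppargc1a was centred 1093 nt off under NG and 544 nt off under HG+miR-93, and that of Mief2 1130 nt off under HG+miR-93. Peaks were chosen by overlap with this same window and the share over all promoter peaks was not counted. The counts that follow are therefore not results about these genes. Under NG, 17 of 26 promoter peaks had their summit within 500 nt of a TSS, with pileups up to 11.2. Under HG+NT it was 17 of 23, with pileups up to 12.5, and there the 6 peaks centred farther off reached at most 2.34. Under HG+miR-93 it was 13 of 23, with pileups up to 11.3, and the 10 others reached at most 5.64, the summit near Flii. Under NG the 9 outlying peaks reached 9.83, the summit downstream of the internal Ppargc1a TSSs. Among the 20000 strongest peaks of each list by −log10 p, the genes with a promoter peak were 6 under NG (Mff, Fis1, Mief1, Mief2, Mfn1 and Ppargc1a; 35.0% of all genes), 3 under HG+NT (Fis1, Mief1 and Ppargc1a; 26.4%) and 1 under HG+miR-93 (Mief1; 21.9%).

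**Figure D4:**
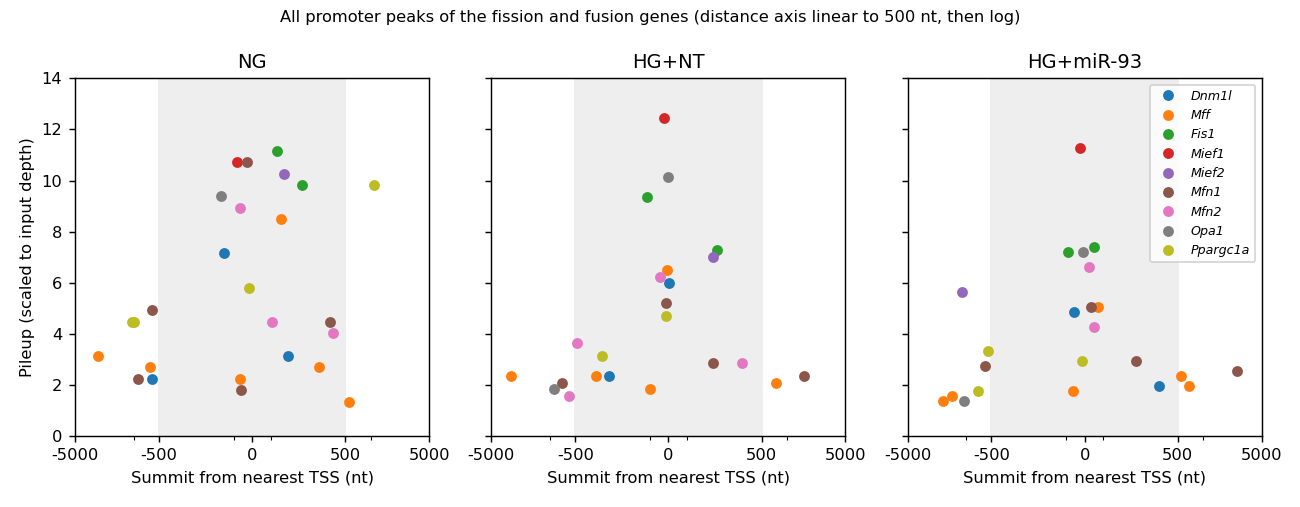
Pileup (vertical axis, scaled to input depth) of every promoter peak of the 9 genes against the distance of its summit from the nearest TSS (horizontal axis, nt, negative upstream, linear within 500 nt and logarithmic beyond), in a panel each for NG, HG+NT and HG+miR-93; the grey band is 500 nt either side. Under HG+NT the peaks above a pileup of 4 all lie in the band, and Mief1 is the highest there at 12.5.

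The promoter windows of the 9 genes differed in composition. GC content was 68.3% in Mief1, 65% in Fis1 and 64.7% in Mfn2, against a median of 55.3% over all promoters, and 44.7% and 48.7% in the main-TSS windows of Mff and Ppargc1a. The ratio of observed to expected CpG was 0.334 in Mff and 0.281 in Ppargc1a and between 0.503 and 0.874 in the other genes, with a median of 0.535 over all promoters. The main TSS of Mff is the internal one at which no summit was listed under HG+NT or HG+miR-93, so the Mff window describes a different place from its upstream peaks. Pileup did not follow GC content gene by gene: Mief1 and Fis1 had high pileups, but the GC-rich Mfn2 had 8.93, 6.23 and 6.61, and Mfn1 and Mief2, with 54.0% and 55.0% GC, had 10.7 and 10.3 under NG.

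Of the motifs searched on both strands, the ETS letters CCGGAAG (bound by GABPA, also called NRF-2) were in the windows of Fis1, Mief1 and Mfn1, at 18, 3 and 27 nt before the main TSS, and in 11.0% of all promoters. The NRF1 core CGCATGCG was in Opa1, 104 nt before the TSS, and in 2.62% of all promoters. NRF1 and GABPA are the nuclear factors that PGC-1alpha coactivates at genes of the respiratory chain. The Sp/KLF letters GGGCGGG were in 5 genes (Dnm1l, Fis1, Mief1, Mief2 and Opa1; 32.2% of all promoters), and the NF-Y letters CCAAT in 5 (Dnm1l, Fis1, Mief2, Mfn1 and Opa1; 38.9%). The E-box CACGTG was in Mief2 (7.71%) and the ERR half-site AAGGTCA in Mff (4.13%). None of the 9 windows held the full CRE TGACGTCA, the YY1 letters AAGATGG, the AP-1 letters TGANTCA or the TATA letters TATAAA, which were in 2.43%, 6.37%, 6.70% and 12.6% of all promoters. In a wider window, 500 bases either side of the main TSS, the CRE was still in 0 genes, YY1 was in 1 (Mff; 18.6% of all promoters), AP-1 in 2 (Mff and Opa1; 18.7%) and TATA in 3 (Dnm1l, Mff and Ppargc1a; 32.0%). The shorter CRE half-site TGACG, chosen after the sequences were seen, was in Mief1, Mfn1, Mfn2 (4 times) and Ppargc1a, and in 23.2% of all promoters. A match is a description of the letters and not of a bound factor.

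Matches to the miR-93 seed, the letters GCACTTT, were sought in the 3′UTRs of the annotated transcripts. They were found in 2 of the 9 genes, Mfn2 with 2 matches and Opa1 with 1, and in 12.4% of 21022 genes with a 3′UTR. The 3′UTR was 1790 nt long for Mfn2 and 3141 nt for Opa1, against a median of 955 nt over all genes. In the genes without a match it ran from 220 nt (Fis1) to 3930 nt (Ppargc1a). The share over all genes was not matched for length. The 3 sites are shown with 10 bases on either side, from the GENCODE vM21 transcripts.
Mfn2 site a: ctcagctttaGCACTTTttcccacttg
Mfn2 site b: ttagcagagaGCACTTTagttttttgc
Opa1 site: tgggccaagaGCACTTTgggggctgca
Peak lists of DNA cutting carry no measure of these transcripts.

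Further genes of the same processes were read from fixed lists. Of 13 genes that act beside the fission machinery, 7 were lower by 20 points or more from NG to HG+NT and 1 was higher (24.6% of all genes in each direction), with a median change of −27.1 points, while by pileup the median change was −7.96 points. The largest changes were those of Mul1, a ubiquitin and SUMO ligase of the outer membrane, at percentiles of 92.6, 21.2 and 58.4 in the NG, the HG+NT and the HG+miR-93 list, and of Mtfp1, an inner-membrane protein that promotes fission, at 84.4, 19.0 and 42.6. The Mtfp1 peak of highest fold had its summit 1249 and 1258 nt upstream of the nearest TSS under NG and HG+miR-93, with pileups of 10.3 and 6.02, and 330 nt downstream under HG+NT, with 3.38. For Mul1 the pileups were 10.7, 5.71 and 6.22 in the NG, the HG+NT and the HG+miR-93 list, with intervals that overlapped in every pair.

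Of 14 genes of fusion and inner-membrane processing, 4 were higher and 3 lower from NG to HG+NT, close to the 24.6% of all genes in each direction, with a median change of −0.317 points. The largest changes were those of Phb2, a prohibitin that scaffolds the inner membrane, at 29.5, 92.3 and 97.4, and of Parl, a rhomboid protease of the inner membrane, at 54.1, 2.15 and 61.8. By pileup Phb2 was at 8.49 under NG, 9.61 under HG+NT and 7.58 under HG+miR-93, so its fold percentile differed far more than its height. The Parl value rested on 7 fragments under HG+NT and on a summit 2630 nt upstream of the nearest TSS under HG+miR-93. Its pileup intervals overlapped in every pair. Of 16 regulators of mitochondrial biogenesis around Ppargc1a, 6 were higher and 2 lower, beside the same 24.6% of all genes each way, with a median change of 2.77 points. Creb1, a cAMP-response factor, was at 14.5, 83.6 and 75.5 and Yy1, a zinc-finger factor, at 14.5, 78.6 and 64.8. Their pileups were 11.2, 13.0 and 11.5 for Creb1 and 11.2, 14.5 and 12.2 for Yy1, with intervals that overlapped in every pair. All 16 had a pileup percentile above 50 under NG, and 15 and 14 did under HG+NT and HG+miR-93. The lowest under NG, Prkaa2 at 51.5, was tied with the median pileup of all genes.

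The genes whose fold percentiles were most like those of Dnm1l over the 3 lists, by Euclidean distance, were Dnajb6 (1.95 points), Dcaf12l2 (1.97 points) and Gm17581 (2.23 points). For Ppargc1a they were Zfp747 (1.87 points), Eogt (2.04 points) and Vsig10 (4.44 points). The distance is over 3 values a gene and is a description.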

How the data were processed

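Per the labels, reads were base-called with CASAVA 1.8.2; after trimming (TrimGalore!), the authors aligned them by Bowtie against mm10 and called peaks with MACS2 against the genomic DNA input. The 3 deposited lists, 1 per condition, are named as joint sets, and the MACS2 settings were not given in the sources used here. The deposited fold is a ratio of the summit pileup to the local input mean, each increased by 1, and the deposited −log10 p tests that pileup by a Poisson model, and the deposited −log10 q score is the same after correction over the list. From fold and p, the fragments and input mean at each summit were recovered with input means on a step of 0.02; this assumes that the 2 replicates were pooled before peak calling and that a pileup counts whole fragments, and the fragment counts and intervals rest on it. Every promoter peak had a solution, and it was unique for 99.6% (NG), 96.9% (HG+NT) and 97.0% (HG+miR-93) of them; where several existed the fewest fragments were taken. The recovery, overlaps and intervals were tested on simulated data with known answers. Those data were made under the same assumptions, so the assumptions themselves were not tested.

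TSSs of protein-coding transcripts came from GENCODE vM21 (GRCm38). A gene was represented by its promoter peak of highest fold, ranked within its list, and a change of 20 points was counted. Named genes were all 9 genes, the 2 with the largest change from NG to HG+NT of each further list, the 3 most like Dnm1l and Ppargc1a, and any gene with a TSS within 1000 nt of theirs, of which there were 0. Start-site clusters join TSSs at most 1000 nt apart. The clusters, the ratios of highest pileups and of pileups at the most upstream cluster over all genes, the CRE half-site and the RefSeq promoter table were added after the data were seen. Intervals are 95% exact Poisson, or exact binomial for ratios, and cover counting error only. Analyses used Python 3.11.15, pandas 2.3.3 and scipy 1.17.1. The genes and lists were chosen with earlier results of these data known.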

Additional observations from a re-analysis of the deposited data

How the results depend on the processing

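No paired analysis was possible because each condition has 1 joint list, and for the same reason no replicate could be left out. With −log10 q of at least 2, 0 of the 9 genes kept a promoter peak, so that setting gave no value. Only 2 of all genes kept one in every list. With −log10 p of at least 1 Mief1 alone was left in all 3 lists, ranked among the 8513 genes left. The median change from NG to HG+NT was then its own, 30.4 points in place of −22.3. In that setting 0 genes were lower in either comparison and 0 were higher from HG+NT to HG+miR-93. Intervals were apart for 0, and 1 was highest and 0 lowest under HG+NT. Ranked by pileup, the counts from NG to HG+NT were 0 higher, 2 lower and 0 lower with intervals apart, the HG+miR-93 counts against HG+NT were 0, 1 and 0, and 1 gene was lowest under HG+NT. Ranked by −log10 p, 3 genes were lower from NG to HG+NT, 0 lower with intervals apart and 1 highest under HG+NT. With folds summed, 3 genes were lower from NG to HG+NT, while 1 was higher and 0 lower with HG+miR-93 than with HG+NT. With summits within 500 nt, which leaves out Mief2 and ranks among 12274 genes, 2 genes were higher and 2 lower from NG to HG+NT. In that setting 1 was higher with HG+miR-93 than with HG+NT, and 2 were lowest under HG+NT. A promoter of 1000 nt gave 2 genes lower with intervals apart from HG+NT to HG+miR-93; division by the chromosome median gave 0 higher from NG to HG+NT; a threshold of 10 points gave 2 higher there, and 30 points gave 0 higher and 2 lower. Among the 50000 strongest peaks of HG+miR-93 there were 2 genes in place of 1, where 42.0% of all genes had such a peak in place of 21.9%. For the other settings of this section the share of all genes with such a change was not counted. Their counts therefore have no background beside them and are not results about these genes.

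Single changes of 20 points or more that turned direction were, ranked by pileup, Opa1 from NG to HG+NT (11.96 points), Mief2 from HG+NT to HG+miR-93 (−11.4) and Dnm1l and Mfn2 from NG to HG+miR-93 (−13.2 and −0.364). With folds summed they were Opa1 from NG to HG+NT (29.1), Mff, Mfn2 and Ppargc1a from HG+NT to HG+miR-93 (1.89, −13.5 and 2.52) and Dnm1l and Mfn2 from NG to HG+miR-93 (−11.6 and −7.11). At the main TSS alone, 3 genes were lower from NG to HG+NT and 1 was higher from HG+NT to HG+miR-93, with 0 lower with intervals apart in either comparison, and Mff was at 18.3, 3.17 and 21.5 points from NG to HG+NT, HG+NT to HG+miR-93 and NG to HG+miR-93. The changes of Fis1, Mief1 and Mief2 from NG to HG+NT and of Mfn1 in both comparisons with NG kept their direction in every setting that gave them, but not their size: Fis1 ranged from −24.0 to −1.21 points, Mief1 from 2.91 to 30.4, Mief2 from −79.0 to −10.7, and Mfn1 from −46.1 to −7.14 under HG+NT and from −44.6 to −5.86 under HG+miR-93. Fis1 also kept its direction from HG+NT to HG+miR-93 (−45.3 to −5.14) and from NG to HG+miR-93 (−68.8 to −6.35). So did Ppargc1a from NG to HG+miR-93, where it was lower by 20 points or more in every setting that gave it (−61.6 to −20.4). Its NG value, by highest fold and by highest pileup, was that of the summit outside the promoter window. At the internal TSSs the ratio of pileups was 0.502, with an interval of 0.223 to 1.15. The settings draw on the same lists, and the share of all genes that kept a direction was not counted. In the wider window the ERR half-site was in 3 genes in place of 1 and the CRE half-site in 7 in place of 4; in the RefSeq promoter table the ERR half-site was in 0 genes and AP-1 in 1, Opa1. The cause of these differences between settings was not tested. Depth limits all of this: member peaks had a median of 10 fragments under NG, 12 under HG+NT and 15 under HG+miR-93.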
